A study of Rattus norvegicus with 10 samples.

Results

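The 10 genes described here are immediate early response genes: Fos, Jun, Junb, Egr1, Ccn1, Atf3, Ier2, Dusp1, Dusp6 and Gadd45b. They were taken by symbol, as every probe set whose only gene symbol in the array's annotation is 1 of these names, which gave 16 of the 15866 probe sets on the array that are not controls. RNA came from 10 rat fetal kidney samples at gestation day 22, 1 array each. In the normal group the mothers ate a regular diet (5 arrays, replicates 1 to 5). In the treated group the fetuses were growth-restricted and came from Wistar mothers of 200 to 280 g, made hyperinsulinemic with a 2 mm piece of a slow-release insulin implant placed under the skin before mating and again after it (5 arrays, replicates 6 to 10); they too were on a normal diet. The strain of the normal mothers was not given in the sources used here, nor was the litter or sex of any fetus, so p-values measure the spread between these samples, and littermates would make them too small.

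Immediate early genes are switched on within minutes of a stimulus by factors that already sit in the cell, and their short-lived mRNAs soon decline. Growth factors, stretch and stress reach them through MAP kinases, which activate serum response factor with its ETS partners, and CREB. Their products then act on later genes: Fos, Jun, Junb and Atf3 are leucine zipper proteins that pair as AP-1 and related dimers, Egr1 is a zinc finger factor, and Dusp1 and Dusp6 are phosphatases that switch MAP kinases off again.

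Promoters of 7 members were matched in RefSeq (GRCr8). Those of 4 are shown: Egr1, Ier2 and Dusp1 because they carry letters bound by serum response factor or CREB, and Ccn1 because it had the largest difference among the tested members. Each is the 250 bases before the annotated start, 5′ to 3′, with motif matches in capitals.
Egr1 (chr18:26736828-26737077, plus strand): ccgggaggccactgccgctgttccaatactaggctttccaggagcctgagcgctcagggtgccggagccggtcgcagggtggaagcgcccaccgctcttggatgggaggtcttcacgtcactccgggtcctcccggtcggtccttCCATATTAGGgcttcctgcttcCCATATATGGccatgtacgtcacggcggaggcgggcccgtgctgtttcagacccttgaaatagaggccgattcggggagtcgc
Ccn1 (chr2:237225690-237225939, minus strand): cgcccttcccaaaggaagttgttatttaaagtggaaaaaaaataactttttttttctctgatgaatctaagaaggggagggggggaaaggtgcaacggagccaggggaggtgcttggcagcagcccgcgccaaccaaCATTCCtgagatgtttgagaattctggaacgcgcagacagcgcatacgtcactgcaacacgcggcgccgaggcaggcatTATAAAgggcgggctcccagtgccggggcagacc
Ier2 (chr19:40399123-40399372, plus strand): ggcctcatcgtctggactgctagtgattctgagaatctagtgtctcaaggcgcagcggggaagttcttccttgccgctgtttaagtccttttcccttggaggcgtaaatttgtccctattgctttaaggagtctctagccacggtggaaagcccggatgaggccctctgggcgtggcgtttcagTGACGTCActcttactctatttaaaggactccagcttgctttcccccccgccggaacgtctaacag
Dusp1 (chr10:17184603-17184852, plus strand): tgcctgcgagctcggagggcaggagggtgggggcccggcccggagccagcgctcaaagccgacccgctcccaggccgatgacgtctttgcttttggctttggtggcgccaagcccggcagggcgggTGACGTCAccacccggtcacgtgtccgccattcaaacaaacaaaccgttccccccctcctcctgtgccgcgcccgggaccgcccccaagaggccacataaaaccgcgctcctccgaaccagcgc
Capitals mark the CArG box, the site of serum response factor, in Egr1. In Ier2 and Dusp1 they mark the cyclic AMP response element TGACGTCA, and in Ccn1 the TEAD core GGAATG on the other strand, followed by the letters TATAAA. Both strands were searched over windows of 300 bases, the 250 shown and 50 after the start. A CArG box was in 1 of the 7 members (Egr1, with 2 matches) and in 1.64% of all 27457 promoters. The cyclic AMP response element was in 2 members and 1.91% of promoters, GGAATG in 1 member and 13.9%, and TATAAA in 2 members, Junb and Ccn1, and 14.3%. The AP-1 letters TGANTCA (7.33% of promoters) and the EGR letters GCGNGGGCG (5.29%) were in 0 of the 7 members. A match is a description of these letters only.

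Every array had been scaled to the same trimmed mean of 250, and log2 signals of any 2 arrays correlated with r between 0.979 and 0.990. All 9 measured kidney markers passed the filter for testing, with sums of 9419 to 10360 in normal and 10310 to 11140 in treated arrays (exact permutation p = 0.0317, 0.143 after adjustment over 9 array measures). Among them the water channel gene Aqp2 differed by 0.45 ± 0.11, without overlap of the groups (limma, unadjusted p = 0.00118, adjusted p = 0.540). Of liver markers 8 of 13 passed (Ahsg, Apoa1, Apoa2, F2 and Fga did not), and their summed signal over all 13 ran from 1524 to 3189 in normal and from 1861 to 6473 in treated arrays. Their liver score, the mean log2 signal of the 8, was 7.11 ± 0.517 in normal and 7.94 ± 0.784 in treated arrays (SD, n = 5 each, exact permutation p = 0.0873, 0.262 after adjustment over the same measures). At an unadjusted p under 0.05, 4 of the 8 were higher and 0 lower. Over all tested probe sets, 2.44% were higher and 2.93% lower at that level. The smallest p-values were those of Hp (1.43 ± 0.40), Fgg (1.21 ± 0.41) and Ttr (0.85 ± 0.33), with adjusted p-values of 0.676, 0.870 and 0.911 (limma). Alb had the largest difference of the 8, 1.67 ± 0.76 (limma, unadjusted p = 0.0442, adjusted p = 0.918). Treated replicate 6 had the highest liver score of the 10 arrays. Of adrenal markers 1 of 8 passed, with sums of 884.3 to 1813 and 822.4 to 960.3; of leukocyte markers 9 of 12, with sums of 1506 to 1789 and 1639 to 1739; and of erythroid markers 3 of 4, with sums of 5076 to 6564 and 5997 to 8073. Xist, the RNA that coats the inactive X chromosome, ran from 0.8 to 2 in normal and from 42.4 to 70.5 in treated arrays (exact permutation p = 0.00794, the lowest value possible with groups of 5, and 0.0715 after adjustment over the same measures). All these signals lay below the level needed for testing, 79.2 to 87.6 depending on the array. Fetal sex was not given, and the treatment and the Xist level cannot be told apart in any comparison here. In whole kidney, fewer cells of a type and less RNA per cell cannot be told apart either.

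In kidneys of the treated group, Ccn1, Egr1, Dusp6, Gadd45b and Ier2 had lower mean signals than in the normal group. Jun and Dusp1 had nearly equal ones on their brightest probe sets, and Fos, Junb and Atf3 were too dim to be tested. None of these differences passed: 0 of 10 tested probe sets were called. Signals are in arbitrary units, differences are treated minus normal on the scale log2(signal + 16) with standard errors, and a probe set was tested when it reached the 40th percentile of its array (a signal of 79.2 to 87.6) on at least 5 arrays. That left 10 probe sets of 7 members, each above the percentile on all 10 arrays; both of Fos, those of Junb and Atf3, and 1 each of Dusp1 and Dusp6 were below the filter. Adjusted p-values of the 10 ran from 0.907 to 1 (limma), where 1 of all 9601 tested probe sets passed, or 0.0104%. Without adjustment, p lay under 0.05 for 3 lower member probe sets (Ccn1, Egr1 and 1 of Dusp6), where 2.93% of all tested were lower at that level. It did so for 1 higher member probe set (Jun), where the share of all was 2.44%. Of these 3 lower ones, 0 stayed under 0.05 without treated replicate 10, and Ccn1 alone did without normal replicate 4 or 5. Ccn1 and Egr1 did without normal replicate 3 or treated replicate 6, and Ccn1 and Dusp6 without treated replicate 7 or 9. Others came under 0.05 in their place, Gadd45b without normal replicate 4 and the other tested Dusp6 probe set without treated replicate 7. The higher one was lost without normal replicate 1 or treated replicate 9. The groups did not overlap for 0 of the 10, against 1.04% of all. Over the brightest tested probe set of each of the 7 genes, 5 were lower and 2 higher, with a median difference of -0.17, against 0.00291 over all 7267 tested genes, of which 48.5% were lower. The genes were chosen with earlier results of these arrays known, so these counts and the median are a description.

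**Figure D1:**
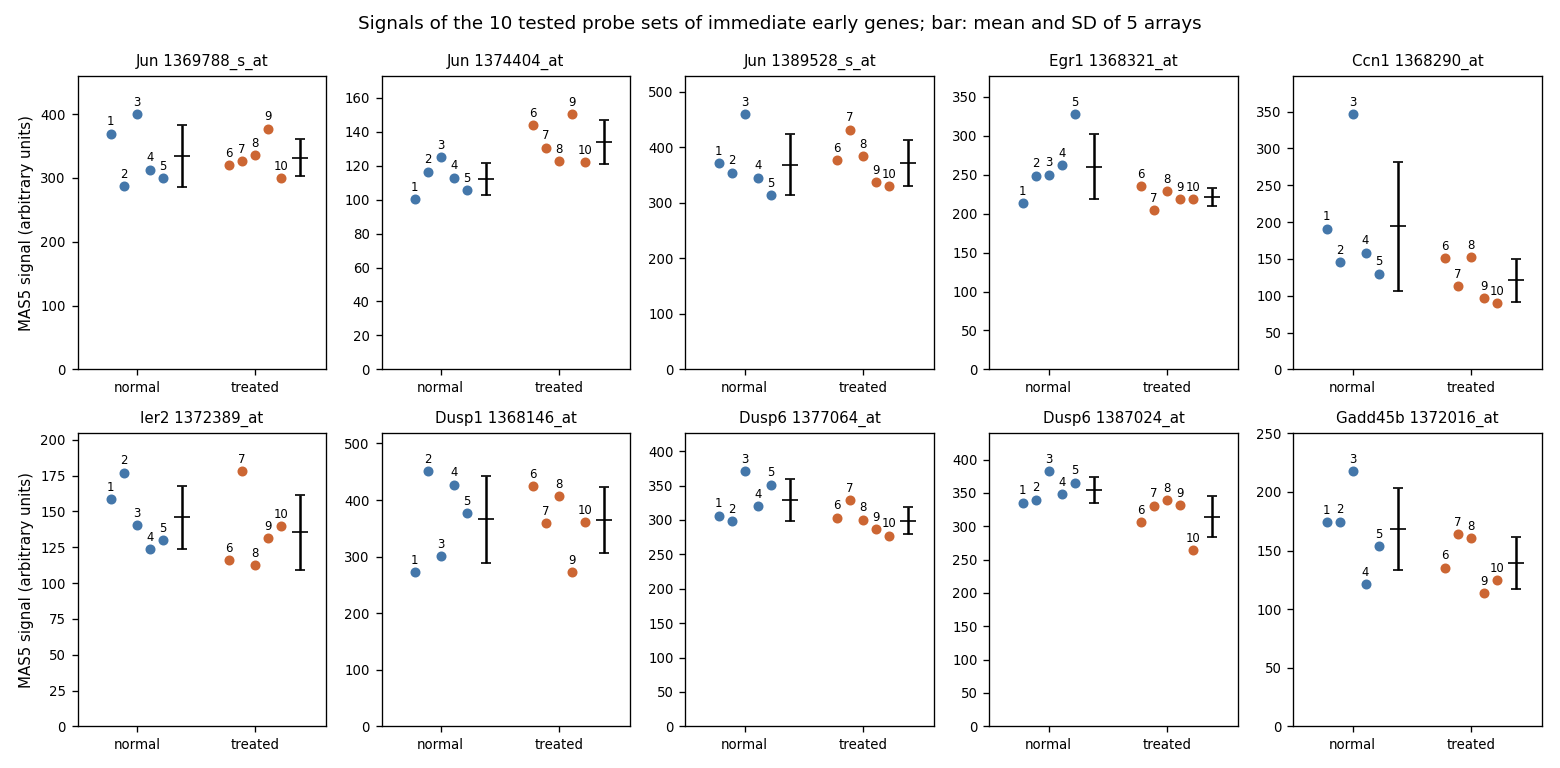
MAS5 signal (vertical axis from 0, arbitrary units) of the 10 tested probe sets on the 5 normal (blue) and 5 treated (orange) arrays; numbers are replicates, and the black bar is the mean with the SD of 5 arrays. The groups overlap in every panel, and normal replicate 3 stands highest for Ccn1, at 346.4, and for Gadd45b, at 217.6.

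Among the AP-1 subunits within the 10 genes, Jun was the one with tested probe sets, 3 in number, and their estimates were not alike. On 1389528_s_at, the brightest, normal replicates 1 to 5 gave 371.4, 354.3, 459.4, 345.1 and 313.5, and treated replicates 6 to 10 gave 377.3, 431.4, 384.2, 337 and 329.4. The groups covered the same range, and the difference was 0.02 ± 0.10 (95% interval -0.19 to 0.22). On 1369788_s_at the range was 287.2 to 399.7 in normal and 299.5 to 377.1 in treated arrays, with a difference of -0.00046 ± 0.09 (95% interval -0.20 to 0.20). On 1374404_at, by contrast, normal arrays read 100.2, 116.6, 125, 113.1 and 105.8, and treated arrays 144.1, 130.8, 122.9, 150.4 and 122. All treated arrays lay above the normal median of 113.1, and overlap came only from treated replicates 8 and 10, which were below normal replicate 3. The difference there was 0.23 ± 0.09 (limma, unadjusted p = 0.0192, adjusted p = 0.907). The annotation ties 1374404_at and 1389528_s_at to the same sequence record, yet over the 10 arrays their values correlated with r = 0.219 (permutation p = 0.546; Spearman rho = 0.37, permutation p = 0.296; r = 0.584 without the 2 arrays farthest from the median). The Jun estimates thus differed by probe set, but the 95% interval of 1374404_at, 0.04 to 0.41, overlaps those of the others. A difference between the probe sets was not tested.

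Fos, the partner of Jun in classical AP-1, was dim on both of its probe sets and below the 40th percentile on all 10 arrays. On 1371283_at normal arrays read 33.3, 35.4, 26.9, 45.4 and 7, and treated arrays 18.9, 32, 32.5, 43.4 and 31.1. On 1375043_at the values were 28.5, 13.9, 18, 22.2 and 23.1 in normal and 10.2, 16.2, 26.5, 14.4 and 2.6 in treated arrays. The groups overlapped on both, and the differences had opposite signs, 0.11 and -0.35; with no filter, the unadjusted p-values were 0.637 and 0.0932 (limma, adjusted p = 0.994 and 0.957). No change of Fos was measurable at signals this low.

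Junb, a Jun relative that pairs with Fos proteins, reached the 40th percentile on 2 arrays. Its normal values were 68.6, 76, 76.7, 66.6 and 68.5 and its treated values 95.1, 68.6, 74.7, 100.7 and 65. Treated replicates 6 and 9 were above every other array, while the other 3 lay among or below the normal ones. The difference was 0.14, with an unadjusted p of 0.27 when no filter was set (limma, adjusted p = 0.988). Atf3, a stress-induced member of the same protein superfamily, was below the percentile on all arrays, at 30.1, 17.6, 54.9, 10.3 and 27.5 in the normal and 16.7, 20.2, 14.9, 13.9 and 10.4 in the treated group. Normal replicates 1, 3 and 5 were above every treated array, and normal replicate 4 below all of them. The difference of -0.42 had an unadjusted p of 0.0732 with no filter (limma, adjusted p = 0.949).

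Egr1, a factor of growth and injury responses whose promoter above holds both CArG boxes, read 213.8, 248.8, 250.1, 262.1 and 327.8 in normal arrays and 235.5, 204.8, 228.8, 218.8 and 218.8 in treated arrays. Normal replicates 2 to 5 stood above every treated array, and normal replicate 1 lay among the treated ones. The difference was -0.21 ± 0.09 (95% interval -0.41 to -0.01; limma, unadjusted p = 0.0391, adjusted p = 0.918). Normal arrays were spread more widely, with an SD of 0.21 on the log2 scale against 0.0713 in treated arrays. Without normal replicate 5, the highest, the difference was -0.13 (unadjusted p = 0.118).

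Ccn1 encodes a secreted matricellular protein that binds integrins, and it had the largest difference of the 10 tested probe sets. Its signals were 190.9, 145.8, 346.4, 158.6 and 129.9 in normal arrays and 151.2, 112.9, 152.6, 96.9 and 90.2 in treated arrays. Normal replicates 1, 3 and 4 exceeded every treated array, and treated replicates 7, 9 and 10 were below every normal one. Means were 194 ± 87.9 and 121 ± 29.6 (SD, n = 5 each), a difference of -0.57 ± 0.21 (95% interval -1.02 to -0.11; limma, unadjusted p = 0.0180, adjusted p = 0.907). Normal replicate 3 carried much of it: without that array the difference was -0.35 (unadjusted p = 0.0382). Fitted together with the liver score, it was -0.69 (unadjusted p = 0.0189).

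Ier2, a small nuclear protein of the same early response, ran through 158.3, 177.1, 140.4, 123.7 and 130 in the normal and 115.8, 178, 112.4, 131.2 and 139.8 in the treated group. Treated replicate 7 and normal replicate 2 were highest and near each other, and treated replicates 6 and 8 were lowest. The difference of -0.10 ± 0.12 (95% interval -0.36 to 0.16; limma, adjusted p = 0.973) became 0.06 when the liver score was added to the fit, the one alternative that turned its sign. It was -0.04 without normal replicate 2 and -0.20 without treated replicate 7, the 2 arrays with the highest signal. Across the 10 arrays Ier2 went down as the liver score went up, with r = -0.617 (permutation p = 0.0539, adjusted p = 0.378 over 7 members) and Spearman rho = -0.60 (permutation p = 0.0729, adjusted p = 0.284). Without treated replicates 6 and 8, the arrays farthest from the median score, r was -0.345. Within the normal arrays r was -0.558 and within the treated ones -0.616. Gadd45b also went down with the liver score, with r = -0.498 (permutation p = 0.145, adjusted p = 0.508) and Spearman rho = -0.588 (permutation p = 0.0812, adjusted p = 0.284). Its r was -0.731 without the same 2 arrays, -0.817 within the normal arrays and 0.0897 within the treated ones. Over the 7 members r with the score ran from -0.617 for Ier2 to 0.403 for Dusp1.

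**Figure D2:**
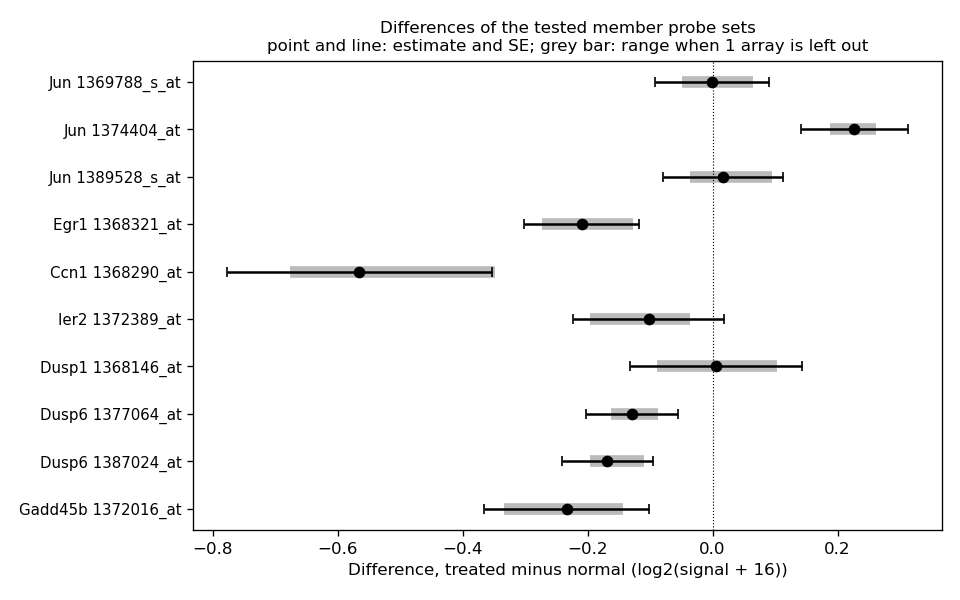
Difference between the groups (horizontal axis, treated minus normal, log2(signal + 16)) for each tested probe set, with the standard error as the line and the range over the 10 fits that each leave out 1 array as the grey bar. Ccn1 lies lowest at -0.57 with a grey bar from -0.68 to -0.35, and of the 3 Jun probe sets only 1374404_at has a bar that keeps clear of 0.

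Of the phosphatases, Dusp6, which acts in the cytoplasm on ERK, had negative differences on both tested probe sets. On 1387024_at normal arrays gave 335.3, 339.7, 382.4, 348.3 and 365.5, and treated arrays gave 305.6, 330.7, 339, 331.8 and 264.4. The groups overlapped only through treated replicate 8, which was above normal replicate 1. The difference was -0.17 ± 0.07 (95% interval -0.33 to -0.01; limma, unadjusted p = 0.0375, adjusted p = 0.918), and it was -0.11 without treated replicate 10. On 1377064_at the values were 306.1, 297.7, 370.7, 320.3 and 351 in normal and 303.1, 328.3, 300.5, 286.7 and 276.9 in treated arrays. Here the overlap was wider, with treated replicate 7 above normal replicates 1, 2 and 4, and the difference was -0.13 ± 0.07 (limma, unadjusted p = 0.0983, adjusted p = 0.941; -0.09 without normal replicate 3). Both probe sets had their highest array in normal replicate 3 and their lowest in treated replicate 10. They followed each other over the arrays with r = 0.788 (permutation p = 0.0065; Spearman rho = 0.636, permutation p = 0.0541; r = 0.629 without the 2 arrays farthest from the median). A dim Dusp6 probe set, 1382778_at, ran from 22.3 to 54.8 in normal and from 23.9 to 70.6 in treated arrays, with a difference of -0.05.

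Dusp1, a nuclear phosphatase that acts on p38 and JNK as well as ERK, had much the same range in both groups. Its tested probe set, 1368146_at, read 272.6, 450.8, 301.3, 427.3 and 376.3 in normal and 424.1, 359.2, 406.3, 272.1 and 361.4 in treated arrays. Low arrays near 272 occurred in both groups, normal replicate 1 and treated replicate 9. The difference was 0.01 ± 0.14 (95% interval -0.29 to 0.30; limma, adjusted p = 0.999). The dim probe set, 1368147_at, ran from 47.8 to 54 and from 31.6 to 61.9, with a difference of -0.08. The interval of the tested probe set covers the values of both Dusp6 probe sets, and a difference between Dusp1 and Dusp6 was not tested.

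Gadd45b, a stress sensor that can activate p38 and JNK through an upstream kinase, read 174.1, 174.6, 217.6, 121.5 and 153.5 in normal and 135.3, 164.1, 160.8, 113.5 and 124.6 in treated arrays. Normal replicates 1, 2 and 3 were above every treated array, and normal replicate 4 was below all treated arrays except replicate 9. The difference was -0.23 ± 0.13 (95% interval -0.52 to 0.05; limma, unadjusted p = 0.0973, adjusted p = 0.941). It was -0.14 without normal replicate 3 and -0.14 when the liver score was added to the fit. It was -0.33 both without normal replicate 4 (limma, unadjusted p = 0.0146, adjusted p = 0.868) and without the 2 arrays with the most Alb, normal replicate 4 and treated replicate 6 (unadjusted p = 0.0247, adjusted p = 0.757).

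The members differed in how much they varied between arrays of the same group. The median within-group SD of all 9601 tested probe sets was 0.129 on the log2 scale. Ccn1 had an SD of 0.428, above 99.6% of them, Dusp1 0.272 (95.4%), Gadd45b 0.246 (92.8%) and Ier2 0.216 (88.5%). The Dusp6 probe sets, at 0.110 and 0.112, were below the median, at the 35.1 and 37.4 percentiles. Egr1 lay between, at 0.157 (67.5%), as did Jun, at 0.115, 0.161 and 0.175 for its 3 probe sets (39.5%, 69.6% and 75.8%). Percentiles were taken over probe sets of every brightness, without matching for signal. The highest signal of Ccn1 was 3.84 times its lowest, while that of Dusp6 1377064_at was 1.34 times.

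**Figure D3:**
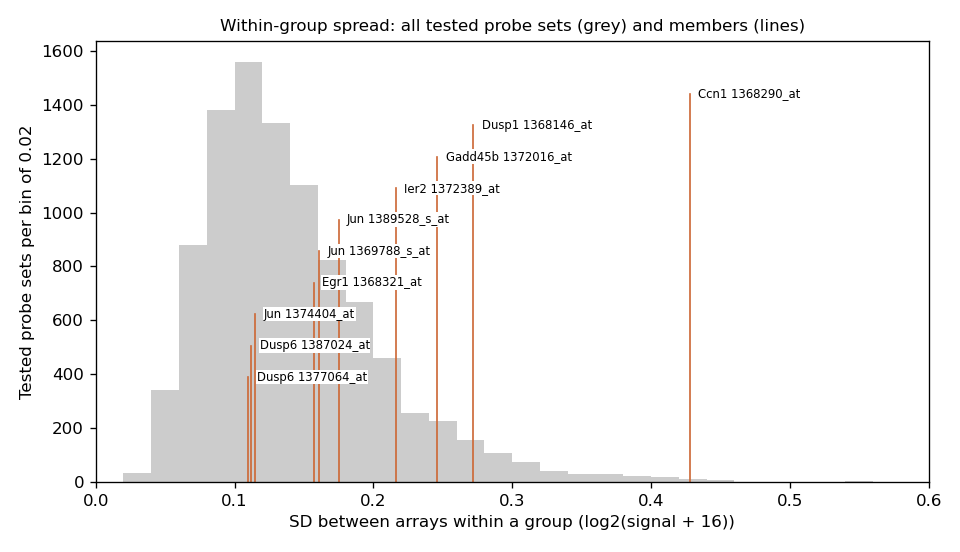
Histogram of the within-group SD of log2(signal + 16) over the 9601 tested probe sets (grey, number per bin of 0.02), with the 10 member probe sets as orange lines whose height has no meaning. The axis ends at 0.6, beyond which lie 17 probe sets; Ccn1 stands in the upper tail at 0.428 and both Dusp6 probe sets lie left of the median of 0.129.

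Single arrays recurred at the ends. On the brightest tested probe set of each gene, normal replicate 3 was highest for 4 of the 7 (Jun, Ccn1, Dusp6 and Gadd45b). Treated replicates 9 and 10 were each lowest for 2, replicate 9 for Dusp1 and Gadd45b and replicate 10 for Ccn1 and Dusp6. The Jun probe sets differed in this: on 1374404_at treated replicate 9 was highest, at 150.4. On Jun 1369788_s_at it was second, at 377.1, to normal replicate 3, at 399.7. The mean z-score of the 7 brightest probe sets was 0.973 in normal replicate 3, -0.82 in treated replicate 9 and -0.856 in treated replicate 10. It lay between -0.209 and 0.513 in the others. Normal replicate 3 also had the lowest liver score of all arrays, at 6.84, but all normal arrays except replicate 4 lay at or below 6.915. Treated replicate 10 had the highest ratio of Gapdh control signals from the 3′ and 5′ ends, a sign of RNA integrity, at 1.18, the lowest being 1.02. The cause of the extremes was not tested. The Gapdh ratio was 1.07 ± 0.0505 and 1.09 ± 0.0649 in the groups (SD, n = 5 each; exact permutation p = 0.746, and 0.746 after adjustment). With it as a covariate the differences were -0.52 for Ccn1, -0.23 for Egr1 and -0.15 for Dusp6 1387024_at.

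**Figure D4:**
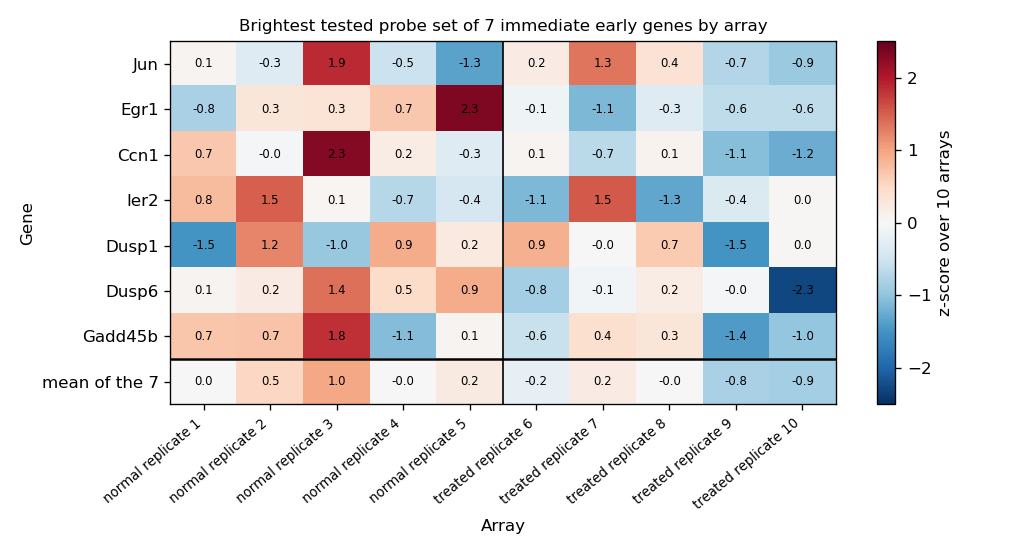
z-scores over the 10 arrays (colour and printed number) of the brightest tested probe set of 7 genes, with arrays as columns, normal to the left of the black line, and the mean of the 7 genes in the bottom row. Normal replicate 3 has the highest mean, 0.973, and treated replicates 9 and 10 the lowest, but Egr1, Ier2 and Dusp1 have their highest arrays elsewhere.

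The members did not move as a single block over the arrays. Of 21 pairs of the 7 genes, 13 correlated above 0, with a median r of 0.199, and 0 passed after adjustment over the pairs, with 3 at an unadjusted permutation p under 0.05. Once each group was centred on its mean the median r was -0.134. Which pair was strongest depended on the measure. By Pearson r without centring it was Ccn1 and Gadd45b, with r = 0.759 (permutation p = 0.0093, adjusted p = 0.195), Spearman rho = 0.515 (permutation p = 0.133, adjusted p = 0.40) and r = 0.676 after centring. Without normal replicate 3 and treated replicate 10 its r was 0.429, so the relation leaned on those arrays. Jun and Gadd45b had r = 0.687 (permutation p = 0.0278, adjusted p = 0.292; Spearman rho = 0.624, permutation p = 0.0606, adjusted p = 0.385), 0.387 without the 2 farthest arrays and 0.807 after centring. For Jun and Ccn1 r was 0.636 (permutation p = 0.0477, adjusted p = 0.316; Spearman rho = 0.552, permutation p = 0.104, adjusted p = 0.385), 0.636 again without the 2 farthest and 0.831 after centring, the highest centred value. By Spearman rho it was Egr1 and Dusp6, at 0.742 (permutation p = 0.0176, adjusted p = 0.369), with r = 0.506 (permutation p = 0.145, adjusted p = 0.506), 0.529 without the 2 farthest and 0.198 after centring. Egr1 and Ccn1 had r = 0.199 over all arrays (permutation p = 0.534, adjusted p = 0.856; Spearman rho = 0.328, permutation p = 0.350, adjusted p = 0.705; 0.465 without the 2 farthest) and -0.243 after centring.

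Over the 10 arrays, the genes outside the 10 whose values were most like the mean z-score of the members were Ccn2, Bhlhe40, Tmed4, Phyh and Dph5, with Pearson r of 0.942, 0.927, 0.899, 0.898 and 0.873, the highest of 7260 genes compared. Picking the highest values of so large a search over 10 arrays favours high r even among unrelated genes. No p-value was computed for these r, nor r after centring or without the extreme arrays. This likeness is a description over the same 10 arrays, and its cause was not tested. Ccn2, the connective tissue growth factor and a relative of Ccn1, stood at 764 ± 90.2 in normal and 695 ± 78.6 in treated arrays, a difference of -0.14 ± 0.09 (limma, adjusted p = 0.972). Bhlhe40, a repressor that responds to serum, cyclic AMP and low oxygen, stood at 159 ± 40.8 and 129 ± 18.9, a difference of -0.26 ± 0.14 (limma, adjusted p = 0.941). Both belong to the list of other immediate early genes given next. Tmed4, a protein of the early secretory pathway, differed by -0.14 ± 0.07, and Phyh, a peroxisomal enzyme, by -0.05 ± 0.05.

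Genes of the rest of the early response and of the pathway above it did not differ at the threshold in these arrays. Of 53 other listed immediate early genes, 48 were measured and 32 tested: 14 were lower and 18 higher, with a median of 0.00403 and a range of -0.26 to 0.16. Named here after their values were seen, as relatives of the members, Jund differed by -0.01 (limma, adjusted p = 0.998), Myc by 0.00390 (adjusted p = 0.999) and the nuclear receptor gene Nr4a1 by -0.14 (adjusted p = 0.970). Fosb, Fosl1, Fosl2, Egr2 and Egr3 were among the 16 below the filter. Among kinases and the factors they activate, 22 of 25 measured genes were tested, 7 lower and 15 higher, with a median of 0.01 and a range of -0.13 to 0.27. Srf, the factor that binds the CArG box, chosen in the same way, differed by 0.02 and the ERK kinase gene Map2k1 by 0.00125. Among feedback inhibitors, which damp the same signals as the phosphatases do, all 10 measured genes were tested, 5 lower and 5 higher, with a median of -0.00902. In these 3 lists 0 genes passed (limma), and 0 had an unadjusted p under 0.05.

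**Figure D5:**
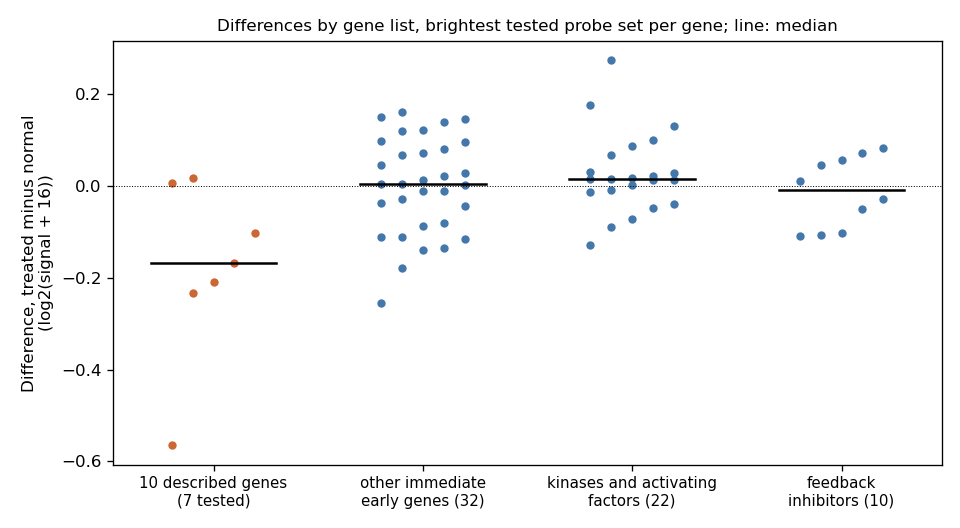
Differences between the groups (vertical axis, treated minus normal, log2(signal + 16)) of the brightest tested probe set of each gene, by list, with the median as a black line. The 7 tested members have a median of -0.17 and reach down to -0.57, while the other 3 lists centre near 0 with medians of 0.00403, 0.01 and -0.00902. The members were chosen with earlier results of these arrays known, so the contrast is a description.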

How the data were processed

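Total RNA of 10 samples was measured on 1-colour Affymetrix rat arrays. The deposited values are intensity values on a linear scale that the authors made with MAS5, per the submitters' processing notes, with version and settings not stated there. GEO's platform annotation gave 1 symbol for 12789 of 15923 probe sets, several for 312 and none for 2822; symbols of the gene lists were updated through Entrez identifiers (12754 matched, GRCr8). The 57 control probe sets were left out. Values were transformed as log2(signal + 16), which understates changes of dim genes. After the filter, 9601 probe sets of 7267 genes entered a limma fit (version 3.58.1, R 4.3.3; lmFit, eBayes with an intensity trend, two-sided, Benjamini-Hochberg over all 9601, threshold 0.05); the fit was tested on simulated data. Correlations used 100000 permutations, two-sided, adjusted within each family; those between probe sets of 1 gene were 8 and unadjusted. Alternatives were other filters, pseudocounts of 1 and 32, quantile and median normalization, no intensity trend, array weights, the Gapdh ratio or the liver score in the fit, and omitted arrays. Groups came from the sample titles. Array measures used exact two-sided permutation tests. The number of arrays limits the precision. By rule, all members were named, up to 3 genes per direction of each other list with an unadjusted p under 0.05 (there were 0 in the lists of the early response and its pathway) and the 5 genes most like the members. The differences of Alb, Jund, Myc, Nr4a1, Srf and Map2k1 were added after their values were seen. The members, lists and alternatives were chosen with earlier results of these data known. Figures used Python 3.11.15 and matplotlib 3.10.9.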

Additional observations from a re-analysis of the deposited data

Results flagged for a closer look

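Ccn1 in normal replicate 3, at a signal of 346.4, lay far above the other normal arrays, which ran from 129.9 to 190.9. The dim Dusp6 probe set 1382778_at read 70.6 in treated replicate 7, where the other treated arrays ran from 23.9 to 35.2. The mean log2 signal of the liver list was 8.035 in normal replicate 4, where the next normal array was at 6.915. Each was picked out by its gap to the nearest array of its group; 38 groups of 5 arrays were examined, and chance alone flags about 1 group in 20.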

How the results depend on the processing

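Under 21 alternatives, each changing 1 choice, 0 of the 210 member values passed (limma, adjusted p from 0.591 to 1), 189 kept their direction and 21 turned it. Member probe sets lower at an unadjusted p under 0.05, 3 in the report, were Ccn1 alone with array weights, Ccn1 and Egr1 with the liver score, and Ccn1 and Gadd45b, which was not among the 3, without the 2 arrays with the most Alb; the 1 higher one, of Jun, was lost under these last 2. The median of the members stayed between -0.18 and -0.14, and from -0.20 to -0.12 over the omissions of single arrays. The number of probe sets called over all tested, 1 in the report, was 5 with no filter, 4 with array weights, 0 without the intensity trend, with the liver score as a covariate and without the 2 arrays with the most Alb, and 0 to 4 over the omissions of single arrays; the cause was not tested. The signs that turned belong to Dusp1 1368146_at, Jun 1369788_s_at and Jun 1389528_s_at, which were near 0 in the report, and to Ier2, at -0.10. Dusp1 1368146_at was at -0.0324 with array weights, -0.0317 with the Gapdh covariate and -0.157 with the liver score, and ran from -0.0889 to 0.102 when 1 array was left out. Jun 1369788_s_at was at 0.0330, 0.0282 and 0.0207 with the same 3, and ran from -0.0492 to 0.0646. Jun 1389528_s_at was at -0.00670 with array weights and -0.0104 without the 2 arrays with the most Alb, and ran from -0.0368 to 0.0954. Ier2 was at 0.0567 with the liver score. No paired analysis was possible because the groups share no replicate numbers. The probe sets of Fos and Atf3 lie too low on these arrays for a difference to be measured well. Junb, at 65 to 100.7, lay near the level needed for testing and was left out by the filter.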
